A study of Mus musculus with 64 samples.

Results

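Microglia of the hippocampus were compared with microglia of the frontal cortex in the libraries whose titles carry the word Night. The comparison took the 16 Hippocampus_Night and the 16 Frontal_cortex_Night libraries, 32 of the 64 in the series, and the other 32 carry the word Day. Each region held 4 libraries, numbered 1 to 4, per condition label. These labels were Soci, Cogn, Ctr0 and Ctr1, and condition entered the model as a term. The labels do not explain the condition names and state no clock time for Night, so both are used as they stand. All mice of both regions were young adult males of strain C57BL/6 by the labels (C57BL6/N in the methods), kept on a reversed light-dark cycle as the methods describe, with no transgene and no drug named in the labels. Cells were released at low temperature by mechanical dissociation, cleared of myelin on Percoll and drawn out with magnetic beads against CD11b, a surface protein shared by microglia and other myeloid cells. The magnetic sorting selects on this 1 surface protein, so other brain cells and cell-free RNA can stay in a sample. Nothing in the labels says that the libraries of a group came from separate animals, and the p-values measure only the spread between these libraries.

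Microglia are the resident macrophages of the brain parenchyma. They are kept alive by signalling through the receptor Csf1r, survey their surroundings through purinergic receptors such as P2ry12, and can present antigen to T cells on major histocompatibility complex (MHC) class II molecules, which resting microglia carry at low levels. Hippocampal tissue lies against the lateral ventricle, where choroid plexus epithelium secretes cerebrospinal fluid and carries transthyretin (Ttr) and the folate receptor Folr1, and where ependymal cells line the wall with beating cilia. Frontal tissue lies close to the striatum and to the stream of young neurons that moves towards the olfactory bulb, which carry doublecortin (Dcx) and the transcription factors Dlx1, Sp8 and Sp9.

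Per library, 11.4 to 84.5 M counts (M for counts in units of 1e6) were assigned to genes. The hippocampal libraries held up to 84.5 M (median 18.5) and the cortical ones 11.4 to 26.3 M (median 14.0), a difference of 0.49 in mean log2 total that passed a 2-sided permutation test with 100000 resamples (p = 0.0135). Without the libraries numbered 4, which include the deepest 2, the difference was 0.19 (permutation p = 0.151). The 7 loci counted as ribosomal repeats took 43.0% ± 8.04 of hippocampal and 39.5% ± 4.17 of cortical counts (SD, n = 16 each, permutation p = 0.138). The repeat Gm23935 took 0.268% of counts in the median hippocampal and 3.78% in the median cortical library, and the 4 hippocampal libraries numbered 4 held more of it (2.96% to 3.78%) than the other hippocampal libraries (0.159% to 1.15%), so results are also given within number 4 where they turn on it. A single library stood apart by its genes. Hippocampus Ctr0 replicate 4 held Ttr at 8.04 CPM (counts scaled to a common library size, per 1e6) against 610 to 2605 in the other 15 hippocampal libraries, and results that rest on choroid plexus genes are given with and without it.

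Of 17015 genes with enough counts to be tested, 2482 (14.6%) differed between the regions at an adjusted p below 0.05 by edgeR's quasi-likelihood test with Benjamini-Hochberg adjustment. Hippocampal libraries were higher for 1631 genes (9.59%) and lower for 851 (5.0%), with median log2 differences of 0.60 and -0.52 among those called. The split moved with the scaling. Library totals alone gave 990 higher and 978 lower and moved the median of all genes to -0.10, and scaling to the summed counts of microglia identity genes gave 1346 higher and 400 lower with a median of 0.04. Differences are given throughout as log2 of hippocampus over frontal cortex with the standard error of the fit. Differences of at least 1 on this scale were called for 438 genes higher and 178 lower in hippocampus. The 32 libraries separated fully by region for 45 genes (0.264%), of which 27 were higher and 18 lower in hippocampus. Without Hippocampus Ctr0 replicate 4, 2545 of 17213 genes (14.8%) were called, 1427 higher and 1118 lower, and 2233 of the original calls held with the same sign. The count that separated fully then rose to 157 genes (0.923%), of which 138 were higher and 19 lower in hippocampus. The plot of difference against mean level shows which groups held the extremes.

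**Figure D1:**
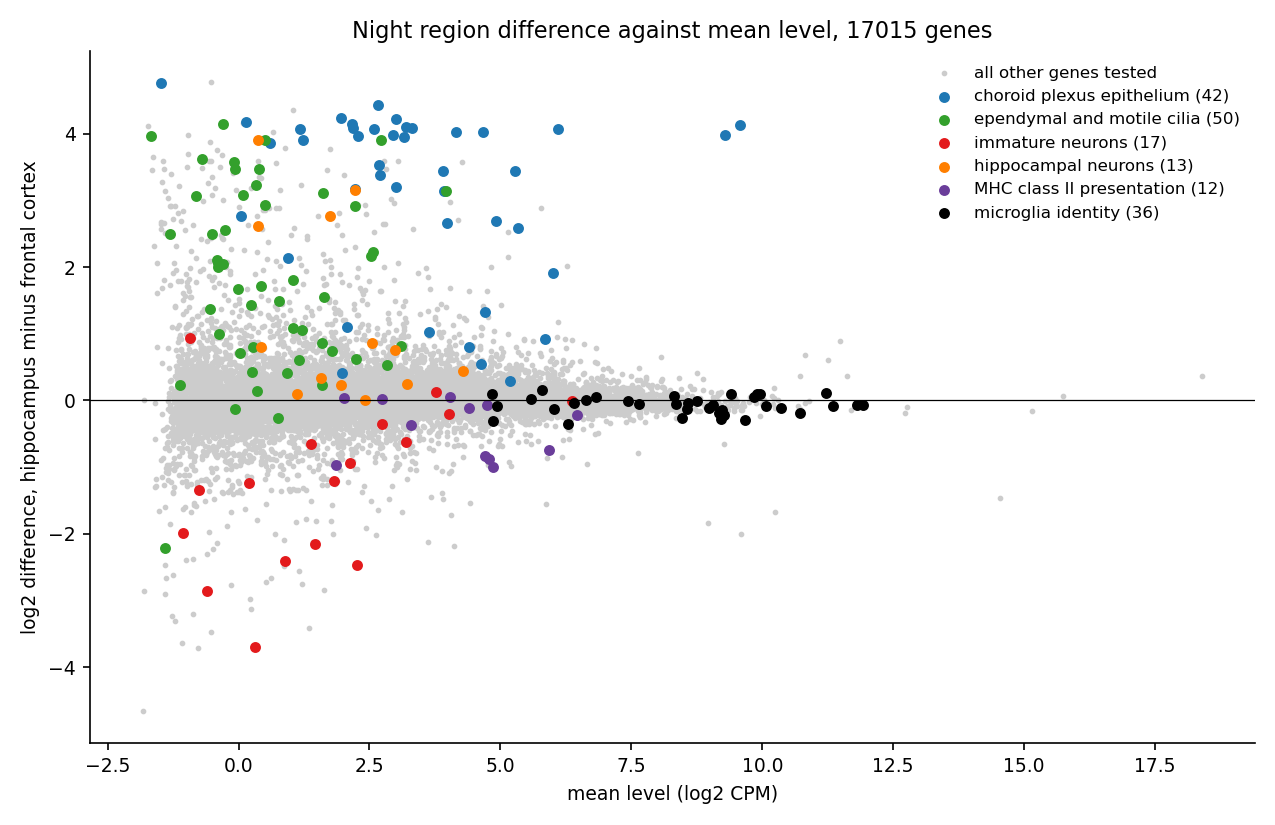
Log2 difference between hippocampus and frontal cortex (y axis) against mean level in log2 CPM (x axis) for the 17015 genes tested in the 32 night libraries, with 6 gene lists in colour and the number of tested members in brackets. The 36 microglia identity genes lie between -0.35 and 0.15 at high levels, and the 42 choroid plexus genes lie between 0.29 and 4.75.

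The genes that define microglia were detected at high levels in both regions, and their differences were small in size. All 36 genes of a microglia identity list were tested. None was higher in hippocampus, 6 were lower, and 30 did not pass. Their differences ran from -0.35 to 0.15 with a median of -0.06, beside -0.01 for all genes tested. The summed level of the list was 22970 to 31431 CPM in hippocampus (median 26456) and 22104 to 36953 CPM in cortex (median 27070), so the ranges overlapped. The other members given here were chosen after their values were seen, because they define the cell type. P2ry12 had a median of 1570 CPM in hippocampus and 1692 CPM in cortex (-0.18 ± 0.09, adjusted p = 0.204). Tmem119, a surface protein of unknown ligand, had medians of 908 and 839 CPM (0.05 ± 0.08, adjusted p = 0.691). The fractalkine receptor Cx3cr1 had medians of 2459 and 2513 CPM (-0.08 ± 0.08, adjusted p = 0.516).

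The 6 lower members were Lag3, Upk1b, Fcrls, Cd33, Hpgds and Siglech. Fcrls, an Fc receptor-like protein on chromosome 3 (chr3:87250758-87263738, minus strand, GRCm38), ran from 631 to 839 CPM with a median of 721 in hippocampus and from 692 to 1219 CPM with a median of 846 in cortex. The ranges overlapped and the difference was -0.30 ± 0.07 (adjusted p = 0.0025). Cd33, an inhibitory sialic acid receptor, had a range of 402 to 707 CPM in hippocampus and 507 to 817 CPM in cortex (-0.28 ± 0.06, adjusted p = 0.00134). The prostaglandin D synthase Hpgds differed by -0.27 ± 0.08 and the sialic acid receptor Siglech by -0.18 ± 0.06, and the T cell inhibitory receptor Lag3 by -0.35 ± 0.09. None of the 6 remained past the threshold when scores of choroid plexus, ependymal and neuronal genes were added to the model (adjusted p from 0.354 to 0.988), a fit with wider errors. Lag3 was then at -0.34 ± 0.18, Cd33 at -0.18 ± 0.08, Hpgds at -0.17 ± 0.11, Upk1b at -0.15 ± 0.13, Fcrls at -0.12 ± 0.13 and Siglech at -0.01 ± 0.08.

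Transcription factors of microglia were called about as often as all genes. Of 21 tested, 3 were higher in hippocampus (14.3%, beside 14.6% of all genes called), none was lower, and the median was -0.04, but none was called with library totals alone. Cebpb, a bZIP factor of inflammatory myeloid genes, rose from a median of 14.7 CPM in cortex to 18.1 CPM in hippocampus (0.34 ± 0.09, adjusted p = 0.00484). Bhlhe41, a basic helix-loop-helix repressor that is also a clock gene, went from 113 to 130 CPM (0.19 ± 0.05, adjusted p = 0.00828), but its adjusted p was 0.0593 without Hippocampus Ctr0 replicate 4. The Krüppel-like factor Klf2 went from 13.8 to 21.1 CPM (0.56 ± 0.19, adjusted p = 0.0466). Cebpb and Bhlhe41 stayed past the threshold with the 3 scores added (adjusted p = 0.029 and 0.0195), while Klf2 was then at -0.05.

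Genes of MHC class II presentation gave the largest departure among the microglial lists. Of 12 tested, 7 were lower in hippocampus (58.3%, beside 14.6% of all genes called) and none was higher, with a median of -0.29. The members that fell were the 3 classical chains H2-Aa, H2-Ab1 and H2-Eb1, the invariant chain Cd74 that occupies their groove, the master regulator of their transcription Ciita, and the costimulatory ligands Cd80 and Cd86. The 5 members that did not pass were H2-DMa, H2-DMb1, H2-DMb2, H2-Oa and H2-Ob, and ran from -0.12 to 0.05. They encode H2-DM, the peptide exchange factor of the endosome, and H2-O, which modulates H2-DM.

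H2-Aa, the alpha chain of I-A, lies on chromosome 17 (chr17:34282744-34287823, minus strand, GRCm38). It ran from 11.6 to 32.5 CPM with a median of 17.5 in hippocampus, and from 14.2 to 67.2 CPM with a median of 32.2 in cortex. Most cortical libraries lay above most hippocampal ones, though the ranges overlapped, and the difference was -0.999 ± 0.17 (adjusted p = 6.81e-05). H2-Eb1, the beta chain of I-E, had medians of 17.3 and 31.5 CPM (-0.88 ± 0.16, adjusted p = 0.000146). H2-Ab1 had medians of 17.4 and 31.2 CPM (-0.84 ± 0.16, adjusted p = 0.000198) and Cd74 of 41.4 and 71.1 CPM (-0.75 ± 0.15, adjusted p = 0.00067). Ciita itself had medians of 2.27 and 4.26 CPM (-0.98 ± 0.19, adjusted p = 0.000348). Hippocampus Ctr0 replicate 4 sat among the other hippocampal libraries here. The list had 7 lower members without that library and 7 when libraries were scaled to microglia identity counts, but 1 when the 3 scores were added (Ciita, adjusted p = 0.0147), where the median was -0.15, and none within the libraries numbered 4, where the median was -0.40.

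Markers of other antigen-presenting cells moved the same way. Border macrophages are the macrophages of the meninges and vessels. Of 16 of their genes, 5 were lower in hippocampus and none was higher, beside 14.6% of all genes called, with a median of -0.26. The mannose receptor Mrc1 had medians of 104 CPM in hippocampus and 135 CPM in cortex (-0.49 ± 0.13, adjusted p = 0.0075), and the lectin Mgl2 of 4.21 and 7.59 CPM (-0.92 ± 0.16, adjusted p = 5.98e-05). The chemokine receptor Ccr2 of monocytes and dendritic cells had medians of 10.3 and 20.7 CPM (-0.95 ± 0.18, adjusted p = 0.000209), 1 of 2 lower genes among 11 tested of neutrophils and monocytes. The summed level of the border macrophage list was 757 to 1163 CPM in hippocampus and 827 to 1313 CPM in cortex, overlapping. With a border macrophage score added to the model, 6 of the 12 class II genes stayed lower. The part of these cells in the class II difference was not tested beyond that. In bulk samples such as these, fewer cells of a type and less RNA per cell cannot be told apart.

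The promoters of class II genes carry a Y box, an inverted CCAAT element that the factor NF-Y binds next to the X box bound by RFX proteins. The letters TGATTGG, searched on both strands, were present in 6 of 9 promoters of 8 class II genes matched in RefSeq (66.7%) and in 7.82% of all 32851 promoters, each spanning 250 bases before to 50 after a gene start. These letters were chosen after the values were seen. The promoters of the 2 chains with the lowest adjusted p are shown, 5′ to 3′ on the gene's strand, with the Y box in capitals. They come from RefSeq on GRCm38.p6 at chr17:34287774-34288073 (minus strand) for H2-Aa and chr17:34305617-34305916 (plus strand) for H2-Eb1.
H2-Aa: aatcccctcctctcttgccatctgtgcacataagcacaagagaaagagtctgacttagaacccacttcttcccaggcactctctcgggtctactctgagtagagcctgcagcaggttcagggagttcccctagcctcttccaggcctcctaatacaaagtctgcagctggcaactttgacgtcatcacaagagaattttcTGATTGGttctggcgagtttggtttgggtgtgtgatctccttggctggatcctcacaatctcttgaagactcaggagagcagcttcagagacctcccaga
H2-Eb1: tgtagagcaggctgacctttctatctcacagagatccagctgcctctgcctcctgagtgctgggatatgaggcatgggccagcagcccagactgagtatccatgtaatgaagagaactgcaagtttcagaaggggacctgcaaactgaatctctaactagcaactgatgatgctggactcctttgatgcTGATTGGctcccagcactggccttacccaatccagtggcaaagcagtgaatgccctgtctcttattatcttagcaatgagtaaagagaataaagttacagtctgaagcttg
The match starts 50 bases before the gene start in H2-Aa and 61 bases before it in H2-Eb1. A match describes the sequence and shows no binding in these cells.

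Interferon-stimulated genes leaned the same way. Of 26 tested, 8 were lower in hippocampus (30.8%, beside 14.6% of all genes called) and none was higher (median -0.20). Oas2, an antiviral oligoadenylate synthase, had medians of 2.90 CPM in hippocampus and 5.68 CPM in cortex (-0.78 ± 0.20, adjusted p = 0.00707). Trim30a (-0.25 ± 0.06) and the GTPase Mx1 (-0.38 ± 0.10) passed with adjusted p of 0.00381 and 0.0062, and Ifit2 and Oasl2 passed with differences of -0.39 and -0.32. With libraries scaled to microglia identity counts, 2 of the 26 were called lower, and so were 2 with the border macrophage score and 2 with the 3 scores added. Without the libraries numbered 4, 1 was called lower (median -0.20), and within them none was (median -0.28). In MHC class I presentation, 1 of 14 genes was lower (Nlrc5, the transcriptional activator of class I genes, -0.42 ± 0.10, adjusted p = 0.00306) and none was higher. That is 7.14% of the list, below the 14.6% of all genes called.

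Lists of innate immune receptors and secreted factors were called somewhat more often than the 14.6% of all genes, at 16.7% to 23.5% of members. None of the Toll-like or chemokine genes was called with the 3 scores added, and none of the Toll-like genes with the border macrophage score. Among 20 Toll-like receptor and inflammasome genes, 4 were lower (Tlr8, Tlr5, Tlr6 and Tlr1, from -0.62 to -0.21) and none was higher, but all 4 had adjusted p between 0.03 and 0.0483, and scaling to microglia identity counts gave 2 higher and 2 lower. Among 17 tested chemokine and cytokine genes, 3 were lower and 1 was higher. The alarmin Il1a ran from 20.5 to 42.4 CPM in hippocampus and from 30.4 to 56.9 CPM in cortex (-0.37 ± 0.08, adjusted p = 0.00135), and Il18 of 9.99 and 12.4 CPM (-0.26 ± 0.06, adjusted p = 0.00294). The survival factor Csf1 was the higher one, with medians of 19.4 and 16.4 CPM (0.25 ± 0.06, adjusted p = 0.00626). No gene of this list was called higher with library totals alone or without the libraries numbered 2. Scaling to microglia identity counts gave 2 higher and 1 lower. Among 18 purinergic receptor and channel genes 3 were lower. The adenosine receptor Adora2a (-1.14 ± 0.23, adjusted p = 0.00043) is also abundant in striatal neurons, and the potassium channel Kcna3 (-0.37 ± 0.10) and the hemichannel Panx1 (-0.24 ± 0.07) passed with adjusted p of 0.008 and 0.01.

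The complement list split by direction. Of 18 tested genes, 3 were lower in hippocampus and 3 were higher (33.3% called, beside 14.6% of all genes). The anaphylatoxin receptor C3ar1 of microglia had medians of 116 CPM in hippocampus and 134 CPM in cortex (-0.30 ± 0.07, adjusted p = 0.0017), and the integrin Itgax (-0.43 ± 0.08, adjusted p = 0.00036) and C4b (-0.47 ± 0.16, adjusted p = 0.0399) were also lower. The higher members were the inhibitors Cd55 (1.13 ± 0.23), Cd59a (1.02 ± 0.20) and Serping1 (0.83 ± 0.20), which protect host cells from complement and are not specific to microglia. In Hippocampus Ctr0 replicate 4, Cd55 was at 0.56 CPM and Cd59a at 2.04 CPM, within the cortical ranges of 0.299 to 2.06 and 0.938 to 5.80 CPM, and none of the 3 passed with the 3 scores added (adjusted p from 0.504 to 0.971).

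Genes of disease-associated microglia, a state described around amyloid plaques, gave 3 higher and 1 lower of 24 tested (16.7% called, beside 14.6% of all genes), with a median of 0.04. Lipoprotein lipase (Lpl) had a range of 12.1 to 21.4 CPM and a median of 16.4 in hippocampus, and a range of 4.82 to 16.8 CPM and a median of 10.9 in cortex (0.60 ± 0.11, adjusted p = 0.000124). Within the libraries numbered 4 its difference was 0.72 (adjusted p = 0.0371), and with the 3 scores added it was 0.43 (adjusted p = 0.405). The ferritin heavy chain Fth1 was called at 0.19 ± 0.06 (adjusted p = 0.0421) but not without Hippocampus Ctr0 replicate 4 (adjusted p = 0.147). Among 26 lysosomal genes 1 passed (3.85%, beside 14.6% of all genes), and the list median was -0.06. It was the acid alpha-glucosidase Gaa (0.25 ± 0.06, adjusted p = 0.00499). No lysosomal gene was called higher with library totals alone, with the 3 scores added, or without the libraries numbered 1 or those numbered 2.

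Nuclear-encoded genes of the respiratory chain were the microglial-type list with the most members higher in hippocampus, although every cell carries them. Of 32 tested, 10 were higher (31.25%, beside 14.6% of all genes called) and none was lower (median 0.18). Under library totals alone and microglia identity scaling, 5 and 12 were higher. Within the libraries numbered 4 the median was 0.05 with none called, and by condition it was 0.00 in Soci, 0.08 in Cogn, 0.18 in Ctr0 and 0.31 in Ctr1, with 6 called in Ctr1 and none in the other conditions. In day libraries the median was -0.05. Ndufa4, a subunit linked to cytochrome c oxidase, ran from 8.15 to 15.7 CPM in hippocampus and from 4.72 to 7.82 CPM in cortex, with no overlap (0.66 ± 0.08, adjusted p = 4.36e-07). Atp5b, the beta subunit of ATP synthase, had medians of 132 and 107 CPM (0.30 ± 0.06, adjusted p = 0.000525), and Uqcrq, Ndufa1, Cyc1 and Cox6c were higher by 0.47, 0.76, 0.29 and 0.26. None of the 32 was called with the 3 scores added. The 7 tested protein-coding genes of the mitochondrial genome did not differ past the threshold, with mt-Co1 at medians of 3058 CPM in hippocampus and 3280 CPM in cortex (adjusted p = 0.523) and mt-Cytb at 1106 and 1137 CPM (adjusted p = 0.793).

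Immediate early genes, which respond to activity and to cell isolation, went both ways. Of 29 tested, 4 were higher and 3 lower (24.1% called, beside 14.6% of all genes). With library totals alone 1 was higher and 4 lower, and with microglia identity scaling 2 and 0. Nr4a2 was higher in hippocampus (0.80 ± 0.15, adjusted p = 0.000176), with medians of 4.86 and 2.95 CPM, and stayed called with the 3 scores added (adjusted p = 0.00767). Fosl2 (0.16), the heat shock gene Hspa1a (0.57) and Klf2 were also higher. Egr1 (-0.56), Fosb (-0.77) and Fos (-0.70) were lower, with adjusted p between 0.0241 and 0.032. In the cell cycle list, the replication helicase subunits Mcm2 (0.38) and Mcm6 (0.25) were higher (9.09% of the list, beside 14.6% of all genes). The other 20 genes did not pass. The list median was 0.20, but -0.001 within the libraries numbered 4 and 0.03 with the 3 scores added, with none called in either. Mcm6 changed sign within number 4. In the clock list, 2 of 19 were higher (10.5%, beside 14.6% of all genes), Bhlhe41 among them, and none was lower.

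**Figure D2:**
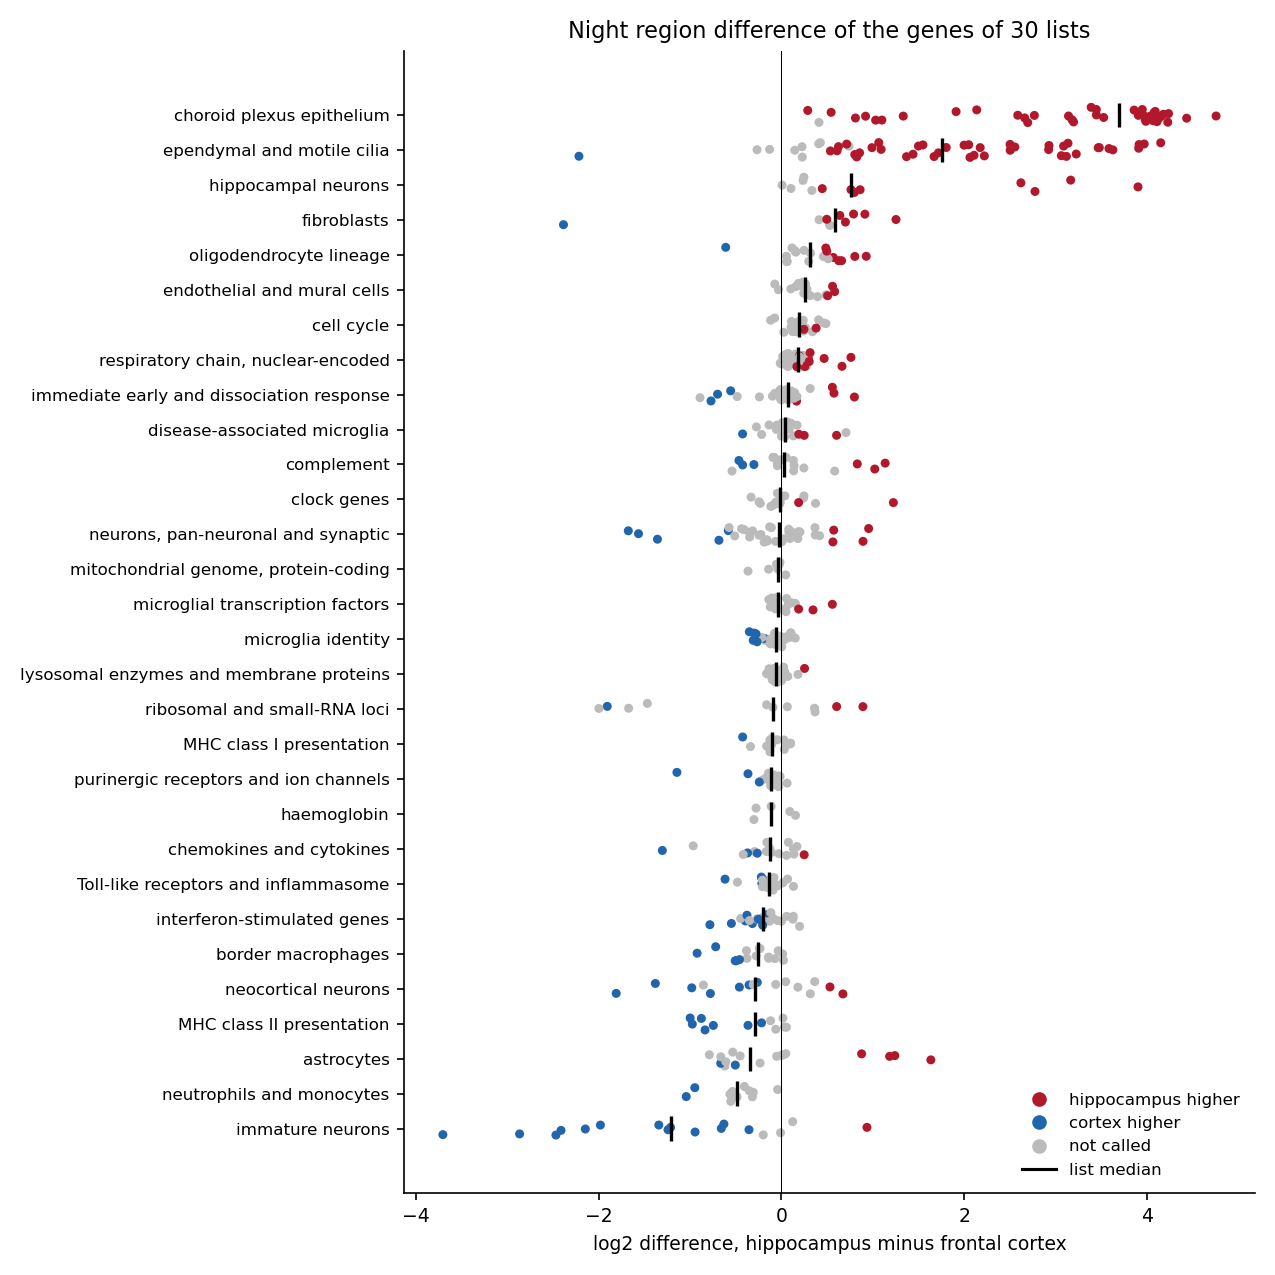
Log2 difference between hippocampus and frontal cortex (x axis) for each tested gene of the 30 lists with at least 2 tested genes (y axis, ordered by median), coloured by call, with list medians as black bars and points shifted vertically for sight. The list medians run from -1.21 for immature neurons to 3.69 for choroid plexus, and the microglia identity genes stay between -0.35 and 0.15.

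Genes of other cells gave the large differences. Choroid plexus genes rose in nearly all members. All 42 were tested, 41 were higher in hippocampus (97.6%, beside 14.6% of all genes called), none was lower, and the median difference was 3.69. The 10 largest differences at a mean level of at least 2 log2 CPM and of the same sign in each replicate number were all choroid plexus genes. They were Folr1, the potassium channel Kcnj13, Epn3, Ttr, the membrane receptor Mfrp, the transcription factor Otx2, the sodium bicarbonate transporter Slc4a5, the bone morphogenetic protein antagonist Sostdc1, Klotho (Kl) and the prolactin receptor Prlr, with differences between 4.03 and 4.43.

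Ttr, the thyroxine carrier secreted by this epithelium, ran from 8.04 to 2605 CPM with a median of 1437 in hippocampus and from 5.44 to 295 CPM with a median of 78.1 in cortex (4.13 ± 0.44, adjusted p = 1.59e-08). Folr1 (chr7:101858331-101870788, minus strand, GRCm38) ran from 0.04 to 24.8 CPM with a median of 11.9 in hippocampus and from 0.0561 to 1.46 CPM in cortex (4.43 ± 0.40, adjusted p = 1.08e-09). In both genes the lowest hippocampal library was Ctr0 replicate 4, which lay within the cortical range for Ttr and below it for Folr1, while the other 15 lay above all cortical libraries. Across the list, 0 of 42 genes separated the regions fully with that library and 34 of 42 without it (0.264% and 0.923% of all genes). The list score, the mean of centred log2 CPM, was -2.48 in that library, 0.47 to 2.53 in the other 15, and -2.46 to -0.17 in cortex. Without it 41 members were called and the median was 3.76.

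The level of choroid plexus RNA varied widely between libraries of the same region. Within the cortex Ttr ranged from 5.44 CPM in Ctr0 replicate 4 to 295 CPM in Ctr1 replicate 4. By condition, fitted alone with 4 against 4 libraries, the list median was 3.52 in Soci, 3.84 in Cogn, 3.49 in Ctr0 and 2.97 in Ctr1. These medians are over different genes, since 40, 41, 30 and 41 members could be fitted, and 31, 36, 0 and 35 of them were called. The condition with none called, Ctr0, holds the library that stood apart. Within the libraries numbered 4 the median was 3.11, with none of the 42 called, a fit in which 200 of 16843 genes (1.19%) were called.

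**Figure D3:**
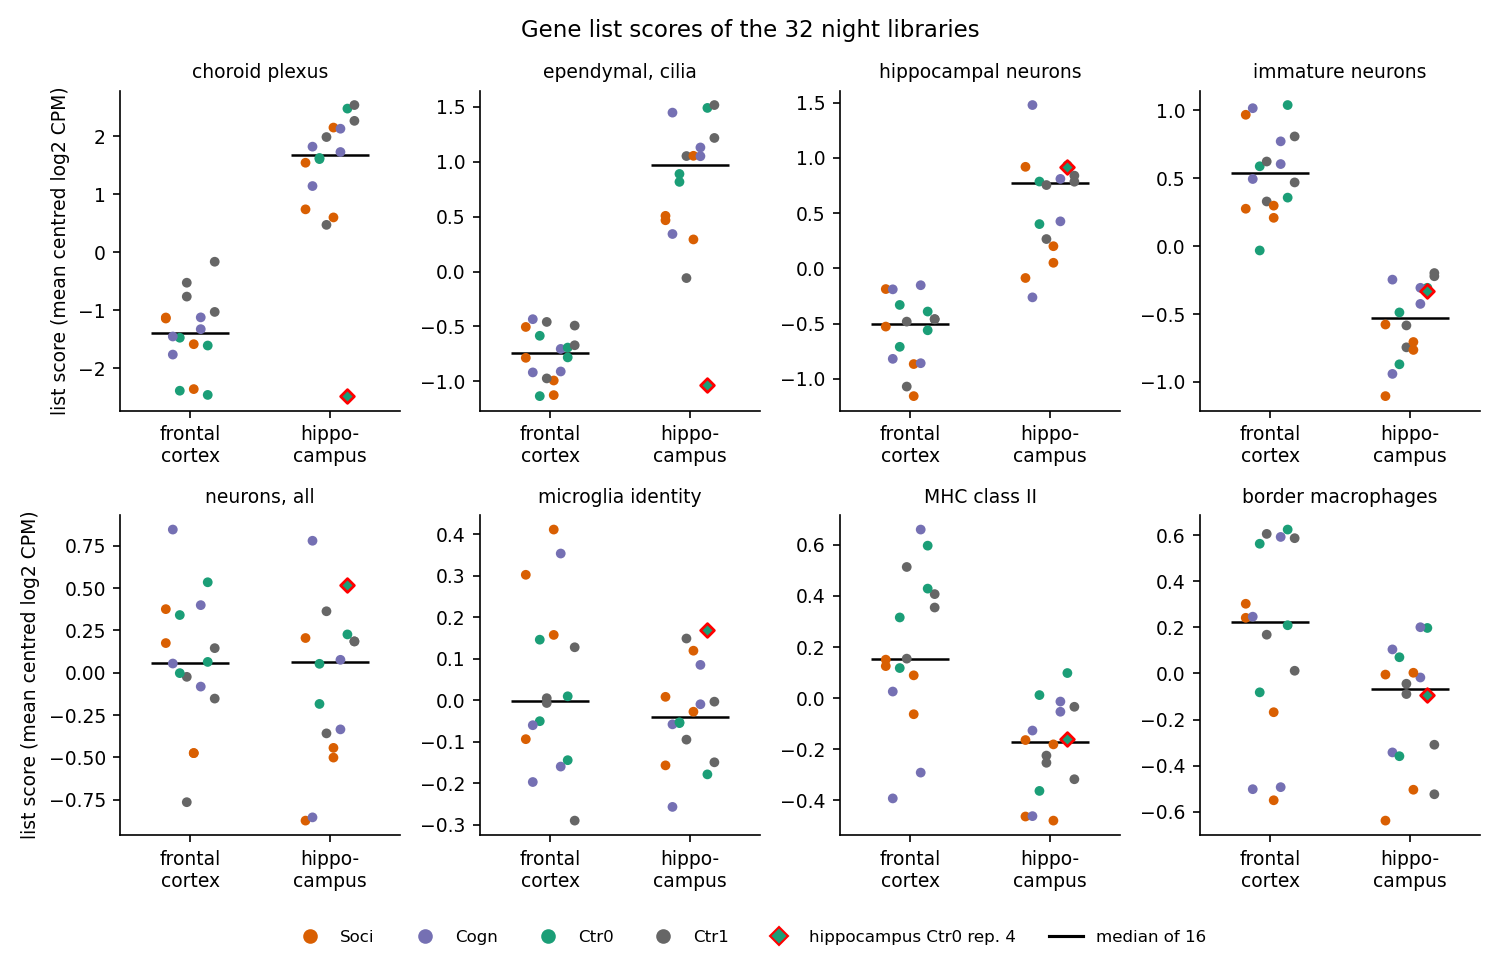
List scores, the mean centred log2 CPM of a list's genes (y axis), in the 16 frontal cortex and 16 hippocampus night libraries for 8 lists, coloured by condition, with group medians as black lines and Hippocampus Ctr0 replicate 4 as a diamond. That library lies at -2.48 for choroid plexus, among cortical libraries, but at 0.92 for hippocampal neurons, among hippocampal ones, and the microglia identity scores of the regions overlap.

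Ependymal and motile cilia genes followed. Of 66 listed, 50 had enough counts to be tested. Of these 41 were higher in hippocampus and 1 was lower (84.0% called, beside 14.6% of all genes), and the median was 1.76. The axonemal dynein Dnah6 had a median of 8.44 CPM in hippocampus and 1.15 CPM in cortex (2.92 ± 0.29, adjusted p = 4.47e-09), and Drc7 of the dynein regulatory complex of 12.8 and 0.734 CPM (3.91 ± 0.36, adjusted p = 1.6e-09). Efcab1, a calcium-binding protein of cilia, was at 2.03 and 0.229 CPM (3.22 ± 0.32, adjusted p = 5.39e-09). In Hippocampus Ctr0 replicate 4 all 3 were within the cortical range, with Drc7 at 0.12 CPM.

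Dnah9 behaved otherwise. This outer arm dynein heavy chain (chr11:65831282-66168551, minus strand, GRCm38) ran from 13.7 to 63.2 CPM in hippocampus and from 1.29 to 4.86 CPM in cortex, and was the member whose regions did not overlap (3.13 ± 0.20, adjusted p = 9.64e-13). Hippocampus Ctr0 replicate 4 held 19.3 CPM, well above every cortical library. It stayed at 2.38 with the 3 scores added, although it is itself a member of a scored list, and at 3.63 (adjusted p = 0.00099) within number 4. The 1 lower member was Stoml3 (-2.22 ± 0.42, adjusted p = 0.000238), a stomatin-like protein of sensory cilia, at a median of 0.365 CPM in cortex. It was named after its values were seen.

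Promoters of motile cilia genes carry X boxes, bound by RFX factors. The RFX-type letters GTTGCCA, searched on both strands, were present in 15 of 64 promoters of the 55 list genes matched in RefSeq (23.4%) against 4.38% of all 32851 promoters. The same letters were in 2 of 44 promoters of 31 choroid plexus genes (4.55%) and in 1 of 28 promoters of 25 microglia identity genes (3.57%). The forkhead letters GTAAACA were in 5 of 64 ependymal (7.81%) and 3.65% of all promoters, and the ETS letters GAGGAAGT of the PU.1 type in 3 of 28 microglia identity (10.7%) and 3.20% of all promoters. Of the genes with the RFX-type letters, 8 of 10 tested were higher in hippocampus, beside 9.59% of all genes, with a median difference of 1.99. Of those without the letters 25 of 32 were higher, with a median of 1.49. The difference between genes with and without the letters was not tested. The 3 promoters of lowest adjusted p among those with the letters are shown, with the matches on either strand in capitals. They lie at chr16:44394549-44394848 (plus strand) for Cfap44, chr6:124779678-124779977 (minus strand) for Lrrc23 and chr11:72361833-72362132 (minus strand) for Tekt1, on GRCm38.p6.
Cfap44: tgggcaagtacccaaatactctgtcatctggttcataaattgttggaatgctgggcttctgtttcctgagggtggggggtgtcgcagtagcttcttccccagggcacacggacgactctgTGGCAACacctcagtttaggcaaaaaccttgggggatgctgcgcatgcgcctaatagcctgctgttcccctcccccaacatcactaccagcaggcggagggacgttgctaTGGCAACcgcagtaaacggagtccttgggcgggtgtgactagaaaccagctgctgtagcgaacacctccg
Lrrc23: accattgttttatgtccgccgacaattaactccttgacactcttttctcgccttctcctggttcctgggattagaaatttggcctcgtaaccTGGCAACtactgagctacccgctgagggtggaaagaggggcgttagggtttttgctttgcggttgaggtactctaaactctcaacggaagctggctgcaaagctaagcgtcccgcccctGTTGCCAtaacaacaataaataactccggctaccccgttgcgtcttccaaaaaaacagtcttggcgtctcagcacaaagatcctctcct
Tekt1: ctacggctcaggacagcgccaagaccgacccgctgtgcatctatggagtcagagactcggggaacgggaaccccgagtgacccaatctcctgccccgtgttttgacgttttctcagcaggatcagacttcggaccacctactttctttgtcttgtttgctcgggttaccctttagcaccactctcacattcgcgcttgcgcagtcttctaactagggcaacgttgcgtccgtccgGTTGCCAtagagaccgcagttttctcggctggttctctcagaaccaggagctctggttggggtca
Cfap44 is a cilia-associated protein (2.17), Lrrc23 a radial spoke protein (3.09) and Tekt1 a tektin of the axoneme (3.58 higher in hippocampus on the log2 scale). Cfap44 and Lrrc23 hold the letters at 2 places and Tekt1 at 1, and the matches describe the window only.

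Neuronal RNA was present in both regions, and members of the neuronal lists went both ways. Of 40 pan-neuronal and synaptic genes, 4 were higher and 5 lower in hippocampus, beside 14.6% of all genes called, with a median of -0.03. The lower members included Gad1, Gad2 and Slc32a1, which make and load GABA. Gad1 ran from 2.13 to 9.53 CPM in hippocampus and from 6.71 to 26.6 CPM in cortex (-1.68 ± 0.19, adjusted p = 5.53e-08), and Gad2 and Slc32a1 differed by -1.56 and -1.36. The glutamate receptor subunit Grin2a was higher, with medians of 98.0 and 43.5 CPM (0.95 ± 0.17, adjusted p = 7.64e-05).

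Genes of hippocampal neurons were higher in hippocampus for 8 of 13 tested, beside 14.6% of all genes called, with none lower and a median of 0.76. C1ql2, a secreted synaptic organiser of dentate granule cells (chr1:120340582-120343174, plus strand, GRCm38), ran from 0.728 to 4.26 CPM in hippocampus and from 0 to 0.570 CPM in cortex, without overlap (3.90 ± 0.27, adjusted p = 4.81e-12). Desmoplakin (Dsp) ran from 4.52 to 17.8 CPM against 0.379 to 2.31 CPM (3.16 ± 0.21, adjusted p = 1.17e-12) and Fibcd1, of CA1 pyramidal cells, from 2.00 to 11.4 CPM against 0.286 to 1.38 CPM (2.77 ± 0.22, adjusted p = 6.44e-11), again without overlap. In Hippocampus Ctr0 replicate 4 these 3 genes were at 2.88, 4.76 and 7.60 CPM, all above every cortical library, while its Ttr lay within the cortical range.

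Genes of immature neurons were the list furthest to the cortical side. Of 17 tested, 13 were lower in hippocampus and 1 was higher, beside 14.6% of all genes called, with a median of -1.21. The higher member was Neurod1, a factor of granule cell precursors (0.94 ± 0.32, adjusted p = 0.0486). It was not called under the 3 other scalings and was named after its values were seen. Dcx, a microtubule protein of migrating neurons (chrX:143855842-143933311, minus strand, GRCm38), ran from 0.835 to 2.27 CPM in hippocampus and from 3.69 to 14.9 CPM in cortex, without overlap (-2.47 ± 0.17, adjusted p = 4.13e-12). Sp8 ran from 0.0525 to 0.405 CPM against 0.938 to 4.08 CPM (-3.70 ± 0.26, adjusted p = 4.36e-12), and Sp9 (-2.41) and Dlx1 (-2.15) also separated fully. The counts of these genes are low, and the CPM of a library near 0 rests on a few reads.

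Genes outside these lists also lay at the cortical side. Meis2, a homeobox factor of striatal and olfactory lineages (chr2:115863064-116065839, minus strand, GRCm38), ran from 2.94 to 10.6 CPM in hippocampus and from 18.7 to 50.4 CPM in cortex, without overlap (-2.18 ± 0.15, adjusted p = 6.58e-12). Rgs9, a G protein regulator abundant in striatal neurons, had medians of 4.21 and 20.7 CPM (-2.12 ± 0.27, adjusted p = 4.68e-07). The potassium channels Kcnh4 (-2.01) and Kcnh5 (-1.51), the collagens Col24a1 (-1.65) and Col6a1 (-1.55), Luzp2 (-1.72) and the deiodinase Dio2 (-1.48) completed the 10 largest differences of that side at a mean level of at least 2 log2 CPM. Of 16 tested neocortical neuron genes, 7 were lower and 2 higher in hippocampus (median -0.29), beside 14.6% of all genes called. Within the libraries numbered 4, however, the median was -0.02 with 1 lower and 1 higher. Over all libraries they included Foxp2 at -1.81 ± 0.19 (adjusted p = 1.38e-08), Syt6 at -1.38 ± 0.14 (adjusted p = 8.67e-09), Lamp5 at -0.98 and Hs3st4 at 0.67.

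**Figure D4:**
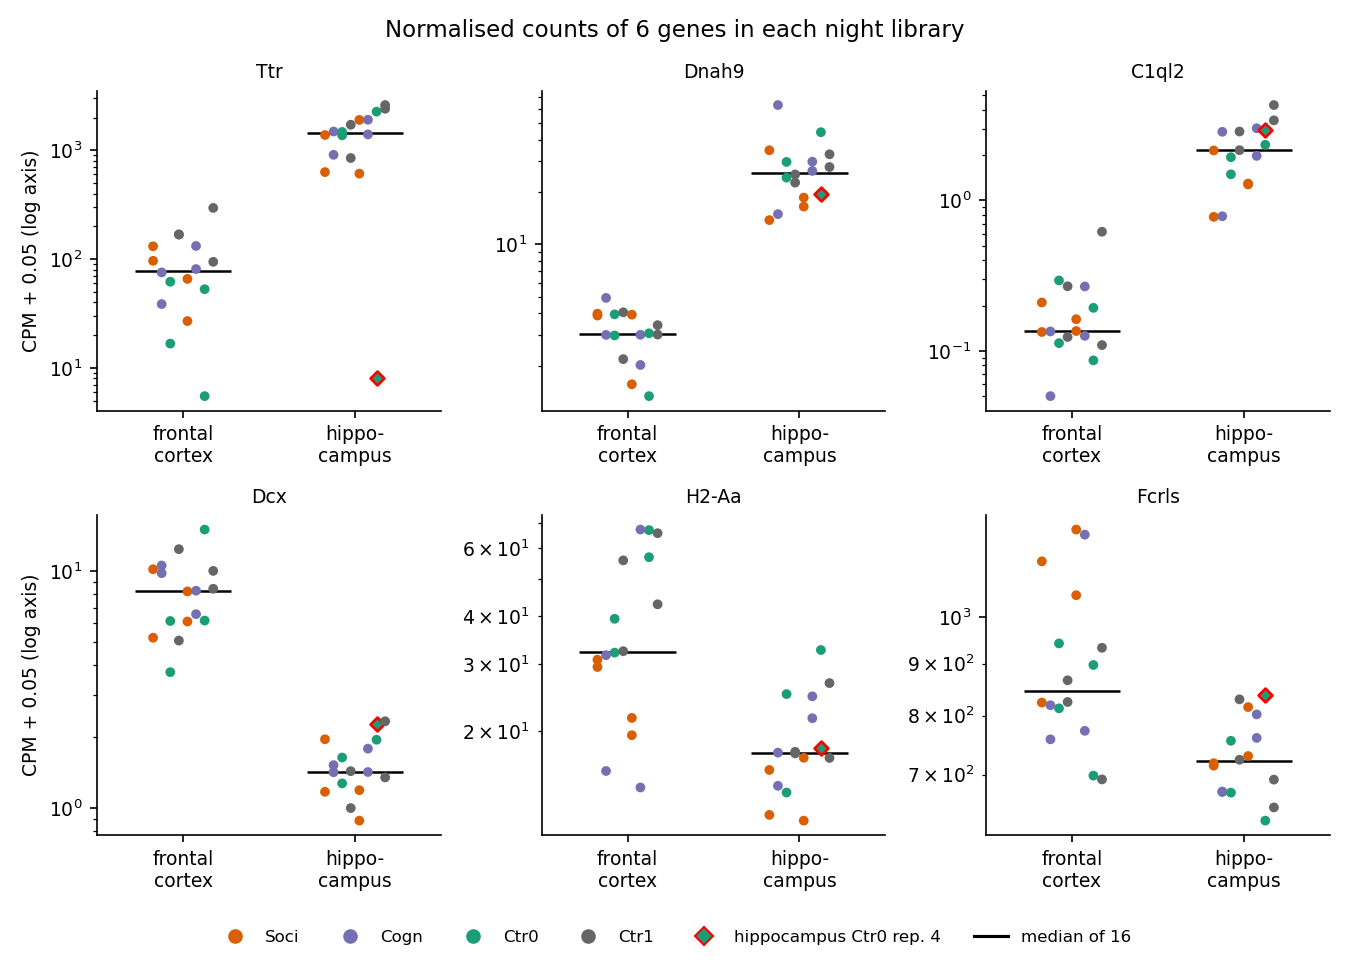
CPM plus 0.05 on a log axis (y axis) of 6 genes in the 16 frontal cortex and 16 hippocampus night libraries, coloured by condition, with medians as black lines and Hippocampus Ctr0 replicate 4 as a diamond. Dnah9, C1ql2 and Dcx separate the regions fully, Ttr does so apart from the diamond at 8.04 CPM, and H2-Aa and Fcrls overlap.

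Glial and vascular lists gave mixed results, to be read beside the 14.6% of all genes called. Among 18 astrocyte genes, 4 were higher (Slc7a10 1.63, Gfap 1.24, Clu 1.18 among them) and 2 lower (the glutamate transporter Slc1a3 at -0.51 among them), with a median of -0.34. Among 20 oligodendrocyte lineage genes, 7 were higher and 1 lower, with the tight junction protein Cldn11 at 0.80, the myelin protein Mog at 0.66, Pdgfra at 0.50 and the proteoglycan Vcan at -0.61. Among 20 endothelial and mural genes, 3 were higher (Vtn 0.58, Myh11 0.56, Tagln 0.50), 3 of 20 beside 14.6% of all genes, and none was called with the 3 scores or with the border macrophage score added. Among 10 fibroblast genes, 6 were higher (Ogn 1.25, Dcn 0.79 and Col1a2 0.70 among them) and 1 was lower (the transporter Slc47a1, -2.38). Lymphocyte genes were near the floor, with 1 of 10 tested (Cd79b, adjusted p = 0.15), and none of 5 haemoglobin genes passed (Hbb-bs, adjusted p = 0.502, and Hba-a1, adjusted p = 0.731).

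Counts of repeated and small-RNA loci depend on how repeated positions and short transcripts were handled and are uncertain. Of 11 such loci, 2 were higher and 1 lower, beside 14.6% of all genes called. Rn7sk, the 7SK RNA that holds back transcription elongation, ran from 2620 to 5832 CPM in hippocampus and from 1355 to 2594 CPM in cortex, without overlap (0.89 ± 0.12, adjusted p = 7.86e-07). Rpph1 had medians of 2873 and 1894 CPM (0.60 ± 0.10, adjusted p = 5.56e-05), and the repeat Gm15564 was lower (-1.91 ± 0.66, adjusted p = 0.047). That last call was lost with library totals alone (adjusted p = 0.0526), with microglia identity scaling (adjusted p = 0.0656) and within the libraries numbered 4, where the difference was -0.26 and the list median 0.50.

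The fit was repeated with scores of the choroid plexus, ependymal and neuron lists as covariates, to see which calls remained beside these scores. It called 500 of 17015 genes (2.94%), and 400 of the 2482 original calls held with the same sign, 188 higher and 212 lower in hippocampus. The choroid plexus score alone left 146 calls, the ependymal score alone 234, and the neuron score alone gave 4811 with all 2482 original calls kept. The choroid plexus score separates 15 of the 16 hippocampal libraries from all cortical ones, so that it takes up part of any region difference. The remaining library, Hippocampus Ctr0 replicate 4, can therefore weigh heavily on the region difference fitted beside this score. The fits with scores were not repeated without that library. Loss of a call under the scores does not show that a gene comes from those cells. A call that held does not show a microglial source either. The neuron score ran from -0.87 to 0.78 in hippocampus and from -0.76 to 0.85 in cortex. Scores that overlap in this way take up little of a difference between kinds of neuron.

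The genes named here are the 10 largest differences in each direction that held at a mean level of at least 4 log2 CPM. Cpne7, a calcium-dependent membrane protein, ran from 22.7 to 158 CPM in hippocampus and from 6.55 to 31.8 CPM in cortex (2.15 ± 0.25), with 1.84 under the scores (adjusted p = 2.95e-05) and 2.44 within number 4 (adjusted p = 0.000163). The axon guidance ligand Slit1 had medians of 124 and 28.9 CPM (2.01 ± 0.19, under the scores 1.61). Galnt17, Chrd, Epha6 and Gfap, at 1.68, 1.43, 1.32 and 1.24 without the scores, also held, as did Tenm2. Trpm3, Atp2b3 and Sh3d19, at 2.89, 2.53 and 1.64, were still called but at 0.74, 0.58 and 0.58 under the scores, and in Hippocampus Ctr0 replicate 4 Trpm3 was at 17.5 CPM, within the cortical range. On the cortical side, where the values given are those under the scores, Meis2 (-2.41), Col6a1 (-1.92), Tmem132d (-1.36), Kcnt1 (-1.36) and Ngef (-1.09) held. So did Cit (-0.99), the syntaxin Stx1a (-0.92), Pitpnm3 (-0.86), Arhgap33 (-0.86) and Kcnh3 (-0.86). Stx1a held although it is itself a member of the scored neuron list. The hippocampal libraries with the lowest and highest neuron score were Soci replicate 3 (-0.87) and Cogn replicate 1 (0.78). Of 13.7 M and 17.9 M counts, Cpne7 had 406 and 2582 there and Slit1 914 and 4601. The cell source of the genes named was not tested.

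A second description used the variation left within regions and conditions. For 885 genes the residual level over the 32 libraries correlated above 0.7 with the residual microglia identity score, which is a description, since all genes share library size scaling. Of these, 59 (6.67%) were called, beside 14.6% of all genes, and 55 of the 59 were lower in hippocampus. The differences among the 59 ran from -1.03 to 0.25, and the median over the 885 was -0.04. For the choroid plexus score the same threshold gave 190 genes with 187 higher in hippocampus and none lower, for the ependymal score 270 genes with 249 higher and none lower, and for the neuron score 1713 genes with 270 higher and 149 lower. These counts include members of the scored lists. The choroid plexus score was -2.48 in Hippocampus Ctr0 replicate 4 and 0.47 to 2.53 in the other 15 hippocampal libraries. That residual alone can raise the correlation of genes low in that library, and no count was made without it. The largest difference among the 59, named after its values were seen, was that of Ptger3, a prostaglandin E2 receptor, which ran from 1.95 to 4.17 CPM in hippocampus and from 4.44 to 8.26 CPM in cortex without overlap (-1.03 ± 0.10, adjusted p = 7.34e-09).

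The region difference was also set against condition and phase. No gene of 17015 (0.00%) showed a region difference that depended on condition at an adjusted p below 0.05 by edgeR's quasi-likelihood test of the 3 interaction terms, and 343 had an unadjusted p below 0.05. Between phases, 190 of 17140 genes (1.11%) had a region difference that differed between night and day, in a fit of all 64 libraries, with 136 (0.793%) more positive and 54 (0.315%) more negative at night. This split turned without the libraries numbered 1 (31 more positive and 76 more negative) and was 67 and 3 without those numbered 4. Of the 190, 14 stayed past the threshold without the libraries numbered 2, when 15 genes were called in all.

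The genes with a larger night difference included choroid plexus and ependymal members, 12 of 42 and 8 of 50, beside 1.11% of all genes called. Without the libraries numbered 2, 4 of the 12 and none of the 8 stayed called, and without those numbered 1, 5 and 1 did. Over the choroid plexus list the median difference was 3.66 in night and 1.48 in day libraries, and over the ependymal list 1.71 and 0.51. The anion exchanger Slc4a2, of the lowest p, had medians of 73.7 CPM in hippocampal night and 45.3 CPM in hippocampal day libraries, beside 38.9 and 41.2 CPM in cortex (night minus day 0.80 ± 0.11, adjusted p = 3.32e-06). Col9a3, a collagen chain, had medians of 46.7, 6.73, 7.29 and 4.07 CPM in the same order (2.12 ± 0.33, adjusted p = 0.000154). Slc12a4 (0.57 ± 0.08), Cab39l (1.16 ± 0.18) and the tubulin Tubb4b (0.87 ± 0.14) followed, with adjusted p of 2.42e-05, 0.000147 and 0.000165.

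Of the immature neuron list, 9 of 17 were more negative at night, beside 0.315% of all genes, and none was more positive. The list median was -1.21 in night and -0.15 in day libraries. Of these 9, 5, 2, 4 and none stayed called without the libraries numbered 1, 2, 3 and 4. Dcx differed between regions by -2.47 at night and -0.91 in day (night minus day -1.56 ± 0.31, adjusted p = 0.0029), and Sp8 by -3.71 and -1.28. No gene of the microglia identity or MHC class II lists differed between phases in its region difference past the threshold, and the class II median was -0.29 at night and -0.22 in day. Night and day libraries came from other samples, so a difference between them cannot be told apart from a difference between rounds of dissection or isolation.

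**Figure D5:**
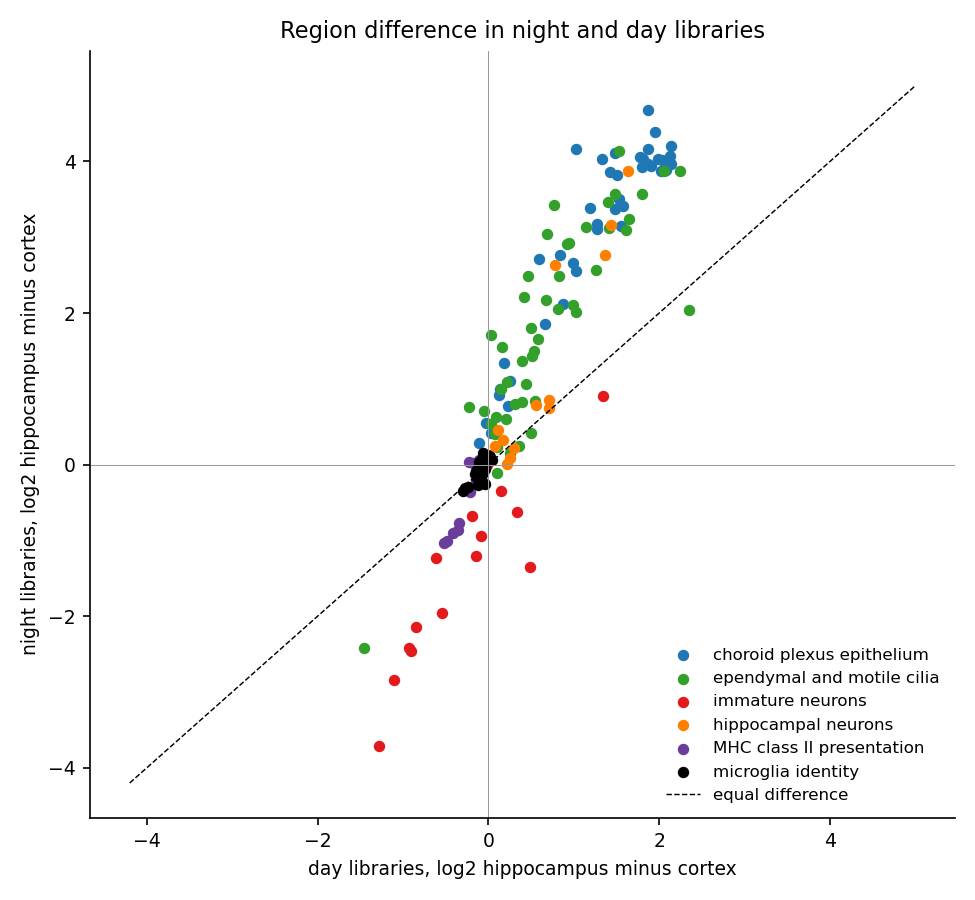
Log2 difference between hippocampus and frontal cortex in night libraries (y axis) against day libraries (x axis) for the tested genes of 6 lists, with a dashed line where both are equal. Choroid plexus genes lie above the line, with medians of 3.66 at night and 1.48 in day, immature neuron genes lie mostly below it, and microglia identity genes lie near 0 on both axes.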

How the data were processed

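The authors deposited 1 table of counts per gene for the 64 libraries, made from rRNA-depleted total RNA. Their methods and processing notes name STAR 2.7.3a, featureCounts of Subread 2.0.0 and GRCm38.p5. The strand setting is not given in the sources used here, so overlapping antisense genes and near-identical copies are uncertain. Of 49671 gene rows, 49326 were matched to a symbol, and 0 columns were left unused. Replicate libraries were compared in 48 pairs, and none was identical.

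The deposited counts were tested with edgeR 4.0.16 in R 4.3.3 by its quasi-likelihood test with TMM scaling, filterByExpr, a prior count of 2, and region and condition as terms. P-values were adjusted by Benjamini-Hochberg over all genes tested, with a threshold of 0.05. The fit was tested on simulated data. Standard errors are the log2 difference divided by the square root of F. List scores average the log2 CPM of the members after each gene was centred over the 32 libraries. Alternatives used DESeq2 1.42.0, other scalings and filters, scores as covariates, a replicate block and left-out libraries. Leaving out Hippocampus Ctr0 replicate 4, scaling to microglia identity counts and the border macrophage score were chosen after seeing the data.

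The comparison, the gene lists and the tests were chosen with earlier results of these data known. Named genes are the 10 largest differences in each direction at a mean of at least 2 log2 CPM with the same sign in each replicate number, up to 4 or 6 genes of lowest p per list (the 2 most abundant where none passed), the 10 largest in each direction that also passed with 3 scores added at a mean of at least 4 log2 CPM, and the 5 of lowest p between night and day. Other genes are said to be chosen after their values were seen. Counts cover counting error and library spread only. Some genes that the rule would name are not reported here.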

Additional observations from a re-analysis of the deposited data

Results flagged for a closer look

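Within the groups of 4 libraries, 7 of 80 tests found a library whose gap to its nearest neighbour was large for the range of its group, where chance gives about 1 in 20. Of library totals, Frontal cortex Ctr0 replicate 2 held 26.3 M counts (M for units of 1e6) beside 13.4 to 15.3 M, Hippocampus Cogn replicate 4 held 65.7 M beside 15.7 to 17.9 M, and Hippocampus Soci replicate 4 held 84.5 M beside 13.7 to 18.5 M. The share of ribosomal loci was 43.8% in Hippocampus Ctr1 replicate 1 and 52.2% to 53.3% in the rest of its group. The hippocampal neuron score was -1.07 in Frontal cortex Ctr1 replicate 3 beside -0.48 to -0.46, and 0.27 in Hippocampus Ctr1 replicate 1 beside 0.75 to 0.84. The immature neuron score was 0.97 in Frontal cortex Soci replicate 1 beside 0.21 to 0.30.

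The region difference of 5 genes differed most clearly between night and day by edgeR's interaction test over 64 libraries. It was 0.92 at night and 0.12 in day for Slc4a2, a difference of 0.80 (adjusted p = 3.32e-06). For Slc12a4 it was 0.54 and -0.02, a difference of 0.57 (adjusted p = 2.42e-05). Cab39l had 1.34 and 0.18, a difference of 1.16 (adjusted p = 0.000147), Col9a3 had 2.71 and 0.59, a difference of 2.12 (adjusted p = 0.000154), and Tubb4b had 0.95 and 0.09, a difference of 0.87 (adjusted p = 0.000165).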

How the results depend on the processing

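The count of 2482 genes went to 146 with the choroid plexus score added, 234 with the ependymal score, 4811 with the neuron score and 500 with all 3. It was 200 in replicate 4 alone, 131 in Soci, 215 in Cogn, 124 in Ctr0 and 647 in Ctr1 alone, where 4 libraries faced 4, and 1302 to 3048 when libraries were left out, lowest without replicate 2 (1302) and replicate 4 (1470). Other settings gave 1693 to 2789 genes, apart from the replicate block. The night minus day count of 190 was 38 with the 3 scores and 15 to 274 with libraries left out (107 without replicate 1, 15 without replicate 2, 70 without replicate 4), and 1 gene passed in every setting. The library total difference of 0.49 ran from 0.19 to 0.74, with permutation p of 0.0697 without replicate 1 and 0.151 without replicate 4. The ribosomal share difference of 3.46 points ran from 1.64 to 5.05, with permutation p = 0.0357 without replicate 3. The cause of these shifts was not tested.

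The labels do not say that a number marks an animal or batch. The numbers were not taken to pair the libraries, since not all same-numbered pairs were alike. Of 16 such pairs, 9 had deviations from group means that correlated above 0.1 (lowest -0.15, median 0.14, highest 0.59). Of the hippocampal libraries, 8 of 16 correlated best with their own number among 4 cortical libraries. That is more than random matching gives on average, so a pairing may exist that the main fit does not use. A replicate block of 4 numbers called 3259 genes and 1 of 16 pairs called 3572. The block called 185 genes for night minus day and 0 among conditions.

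Of 3621 values of named genes under alternatives, 2657 kept direction and side of the threshold, 934 lost the call and 30 in 16 genes changed sign. With the choroid plexus score the log2 difference became -0.071 for Klf2, -0.019 for Cd59a, -0.61 for Cd55, -0.29 for Ogn and -0.18 for Col1a2. With the ependymal score it became 0.060 for Siglech, -0.0058 for Klf2, -0.033 for Cd59a, -0.36 for Cd55, -0.19 for Serping1, 0.00065 for Tlr6, -0.021 for Gaa, -0.0043 for Mcm6, -0.27 for Ogn and -0.32 for Col1a2. With all 3 scores it became -0.052 for Klf2, -0.089 for Cd59a, -0.63 for Cd55, -0.14 for Serping1, -0.00012 for Gaa, 0.0074 for Slc1a3, -0.42 for Ogn, -0.27 for Col1a2 and 0.030 for Gm15564. It was -0.11 for Klf2, -0.074 for Myh11 and -0.11 for Tagln in Ctr1 alone, -0.039 for Fth1 in Cogn alone, -0.091 for Mcm6 in replicate 4 alone and 0.16 for Fos with at least 10 counts in every library. Values under a score or scaling are not counted for genes of the lists it was built from.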

Other observations

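Among the 59 called genes whose residual level followed the microglia identity score, members outside the identity list were chosen after their values were seen and are given as values. The macrophage adhesion receptor Adgre1 (F4/80) differed by -0.33, the inhibitory receptor Cd300a by -0.31, the Toll-like receptor Tlr12 by -0.36, Cd48 by -0.29 and the interleukin receptor chain Il13ra1 by -0.27, all lower in hippocampus. None of the 5 was called with the 3 scores added (adjusted p from 0.507 to 0.852, with differences from -0.24 to -0.12), and with the border macrophage score Cd48 (-0.17, adjusted p = 0.206) and Il13ra1 (-0.20, adjusted p = 0.138) were not called.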
